A study of Mus musculus with 6 samples.

Results

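The regions described here are the places in gene deserts where MafA was found in both CUT&RUN replicates of MIN6 cells, a mouse insulinoma line used as a model of the pancreatic beta cell. A MafA region was the union of overlapping MafA peaks (at least 1 bp) with a peak from each replicate. It was kept when it overlapped no H3K4me3 peak of either H3K4me3 replicate and when its midpoint lay outside every RefSeq gene of GRCm38 and more than 50 kb from the nearest gene end. The members were thus chosen by the presence of peaks in both MafA lists and in neither H3K4me3 list, and by position. Of 25894 MafA regions, 1326 (5.12%) met this rule, so their presence and lack of H3K4me3 are no finding. Another 6054 unmarked MafA regions lay between genes but within 50 kb of one, 11886 unmarked regions lay inside genes, and 6628 regions overlapped an H3K4me3 peak.

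The study profiled endogenous MafA in MIN6 cells by CUT&RUN, in which an antibody directs a nuclease to cut out the DNA fragments next to the protein it binds. Per the labels, cells were permeabilised with 0.01% digitonin, and the groups were a MafA antibody, an H3K4me3 antibody as positive control and an IgG negative control, with 2 replicates each. The labels name no treatment or genetic change, and nothing in them says that replicates came from separate cultures, so the spread between them may be technical. Peak lists of the 2 MafA and 2 H3K4me3 libraries were analysed. MIN6 is a single tumour-derived line rather than islet tissue. The IgG libraries were not analysed here.

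MafA is a basic leucine zipper factor of the large Maf family that is restricted to mature beta cells within the islet and activates the insulin genes. It binds Maf recognition elements, whose core holds the letters TGCTGA. H3K4me3 is a histone mark of active and poised promoters, and factor binding far from it is usually called distal. Gene deserts are long stretches without annotated genes, and some hold enhancers of developmental regulators that act over long distances.

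The annotated starts of 3 genes beside strong desert regions are shown because each window overlapped both a MafA region and an H3K4me3 region, so the mark at the gene and the distal MafA region can be seen side by side. They are Foxa2, a pioneer factor of endoderm and islets, Irs1, an adaptor of the insulin receptor, and Scg2, a granin of secretory granules. The sequences are RefSeq's, GRCm38.p6, on the minus strand, from 250 bases before to 50 bases after the start, with TGCTGA or TGCTGAC in capitals. For Foxa2 1 of 3 start windows is shown.
Foxa2, chr2:148045899-148046198: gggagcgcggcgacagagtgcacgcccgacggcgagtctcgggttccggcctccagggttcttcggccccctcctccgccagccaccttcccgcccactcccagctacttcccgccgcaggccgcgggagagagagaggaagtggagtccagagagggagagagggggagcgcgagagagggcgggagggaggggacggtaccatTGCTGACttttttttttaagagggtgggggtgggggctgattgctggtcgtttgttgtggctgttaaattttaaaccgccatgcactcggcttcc
Irs1, chr1:82291390-82291689: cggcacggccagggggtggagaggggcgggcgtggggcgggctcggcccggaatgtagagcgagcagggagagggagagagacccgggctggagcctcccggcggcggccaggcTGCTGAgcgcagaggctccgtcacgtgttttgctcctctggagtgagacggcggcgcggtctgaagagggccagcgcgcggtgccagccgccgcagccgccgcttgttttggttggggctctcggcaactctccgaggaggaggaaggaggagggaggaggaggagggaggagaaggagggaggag
Scg2, chr1:79439977-79440276: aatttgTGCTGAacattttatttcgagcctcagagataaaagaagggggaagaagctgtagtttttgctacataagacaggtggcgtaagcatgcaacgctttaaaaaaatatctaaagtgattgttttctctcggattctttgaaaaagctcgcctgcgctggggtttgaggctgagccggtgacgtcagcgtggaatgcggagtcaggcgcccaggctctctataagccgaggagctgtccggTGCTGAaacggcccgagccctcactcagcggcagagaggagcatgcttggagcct
On either strand, TGCTGA was found in 19.5% of the 32851 start windows in the table, and in 19.9% of the 4420 that overlapped a MafA region. TGCTGAC, which contains TGCTGA, was found in 4.67% of all windows and 6.43% of those in a MafA region. The Foxa2 window holds 1 TGCTGAC, the Irs1 window 1 TGCTGA and the Scg2 window 2, all on the printed strand. These matches describe letters, not binding sites. The MafA regions at Irs1 and Scg2 spanned the whole window, with fold enrichment of 9.63 and 9.46 in replicates 1 and 2 at Irs1 and 3.38 and 3.33 at Scg2. At Foxa2 the MafA region, chr2:148046069-148047117, overlapped only the upstream part of the window, not its start or its TGCTGAC, with 5.47 and 4.59. The strongest desert region beside each gene had 20.6 and 22.6 for Foxa2, 30.5 and 39.3 for Irs1, and 18.0 and 20.3 for Scg2, and the genes were picked for these strong regions.

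Desert regions covered nearly the whole range of strength in the MafA lists. Fold enrichment is the deposited ratio of scaled fragments at the summit to the modelled local background, taken here with a constant added to both. The recovered scaling factor was 1 in replicate 1 and 0.746 in replicate 2. Fragment counts below are whole, unscaled fragments, whereas backgrounds are in scaled fragments, so their plain quotient is not the fold enrichment. Its median over the 1326 desert regions was 6.15 in replicate 1, with an interquartile range of 4.66 to 8.53, and 6.75 in replicate 2, with 5.02 to 9.46. The lowest and highest values were 2.22 and 49.0 in replicate 1 and 2.34 and 53.1 in replicate 2. Both replicates gave at least 10-fold enrichment at 174 desert regions (13.1%), beside 11.6% of all MafA regions and 13.4% of unmarked intergenic regions within 50 kb of a gene, and at least 20-fold at 24. The Spearman correlation of the replicates across the desert regions was 0.73, which describes regions and not independent samples. Enrichment was within 2-fold of each other at 1282 regions and higher in replicate 2 at 827 (62.4%). Summits of the replicates lay a median of 66 bp apart, and within 100 bp at 812 regions (61.2%).

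**Figure D1:**
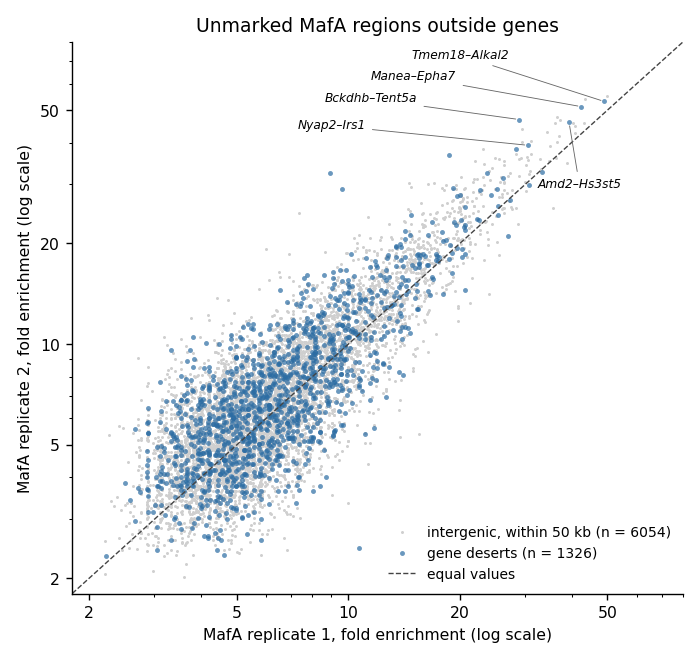
MafA fold enrichment in replicate 1 (x axis, log scale) against replicate 2 (y axis, log scale) for each of the 1326 desert regions (blue) and the 6054 unmarked intergenic regions within 50 kb of a gene (grey), with the coding neighbours of the 5 strongest desert regions named. Both sets cover nearly the same range, and the desert region between Tmem18 and Alkal2 reached 49.0 and 53.1.

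Against unmarked intergenic regions within 50 kb of a gene, desert regions had slightly higher fold enrichment and slightly fewer fragments. The medians near genes were 5.84 and 6.38 in replicates 1 and 2. The difference of median log2 fold enrichment was 0.07 and 0.08 in the first and the second replicate, a mean of 0.08 ± 0.0046 (SD, n = 2 libraries; exact sign-flip permutation test, two-sided p = 0.5, the smallest that 2 libraries allow). The difference was a ratio of 1.06 only, and its SD came from 2 libraries read over the same regions. In whole fragments recovered at the summit it turned round: the desert medians were 23 and 48 fragments, against 25 and 51 near genes, a mean log2 difference of -0.10. The modelled background was lower in deserts, at medians of 2.81 and 4.17 scaled fragments against 3.51 and 5. The part of this lower background in the fold enrichment was not tested. With equal numbers of the strongest peaks in every library the log2 difference was 0.0079, and 0.03 without MafA replicate 2. Median peak width was 675 and 895 bp in deserts and 649 and 825 bp near genes, a mean difference of 48.0 ± 31.1 bp (SD, n = 2 libraries; exact sign-flip permutation test, two-sided p = 0.5). The width difference was 8 bp without MafA replicate 2 and 24.8 bp with equal numbers of the strongest peaks.

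The share of desert peaks found by both replicates had an interval that held the share elsewhere. Of 1768 unmarked desert peaks in replicate 1, 76.9% overlapped a peak of replicate 2 (95% Wilson interval 74.9% to 78.8%, counting error only). The value was 77.7% both near genes and inside genes. Of 2199 unmarked desert peaks in replicate 2, 60.4% (58.4% to 62.5%) overlapped one of replicate 1, against 60.4% near genes and 60.5% inside them. Desert peaks without a partner were weaker, with median fold enrichment of 4.20 (replicate 1) and 4.30 (replicate 2), where those with one had 6.11 and 6.75.

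Deserts held a far larger share of MafA peaks than of H3K4me3 peaks. MafA replicates 1 and 2 had 5.45% and 5.24% of their peaks in deserts, and H3K4me3 replicates 1 and 2 had 0.375% and 0.396%. The means were 5.34% ± 0.146 and 0.385% ± 0.0154 (SD, n = 2 libraries each), a difference of 4.96 percentage points. The groups did not overlap, and the exact permutation test of 2 against 2 libraries gave a two-sided p of 0.333, the smallest it can give. Before the rule on H3K4me3 was applied, 1355 MafA regions lay in deserts, and 29 of them (2.14%) overlapped an H3K4me3 peak, against 25.6% of all MafA regions. Of 15573 H3K4me3 regions only 50 (0.321%) lay in deserts.

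MafA regions thinned out with distance from genes. There were 6.98 unmarked intergenic regions per Mb within 5 kb of a gene end, 6.89 from 5 to 10 kb, 6.37 from 10 to 25 kb and 5.46 from 25 to 50 kb. In deserts the density was 4.08 per Mb from 50 to 100 kb (826 regions), 2.86 from 100 to 200 kb (401 regions) and 1.19 beyond 200 kb (99 regions). Each MafA list by itself fell in the same order, from 9.36 to 1.73 peaks per Mb in replicate 1 and from 12.1 to 2.25 in replicate 2. Over all deserts the density was 3.11 regions per Mb in 426 Mb, against 6.41 within 50 kb of genes and 9.57 inside genes. Median fold enrichment did not fall with it, at 7.08 and 7.26 in replicates 1 and 2 beyond 200 kb against 5.75 and 6.22 within 5 kb. Median fragments at the summit were 26 and 53 within 5 kb, 21 and 46 from 100 to 200 kb and 27 and 52 beyond, over a modelled background of 3.51 and 5.22, 2.81 and 4, and 2.81 and 4. Assembly gaps and repeats that reads cannot be placed in were not subtracted from these lengths.

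**Figure D2:**
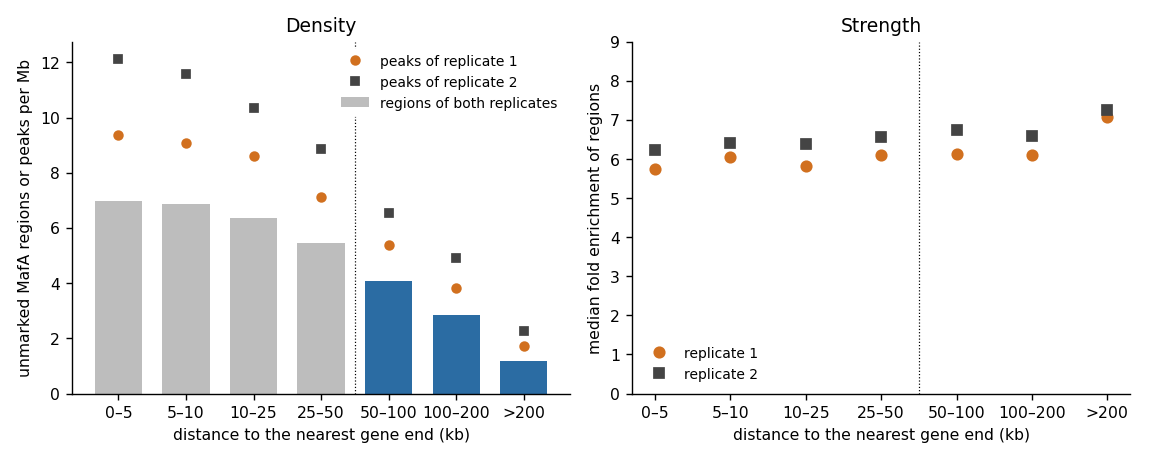
Unmarked intergenic MafA regions by distance to the nearest gene end (x axis, kb): left, regions of both replicates per Mb (bars; grey within 50 kb, blue in deserts) and peaks of each replicate per Mb (points); right, median fold enrichment of the regions in each replicate. Density fell from 6.98 to 1.19 regions per Mb across the bands, while the medians lay between 5.75 and 7.26.

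The farthest region from any gene, chr1:141954076-141955360, lay 500.3 kb from the nearest gene end. It had 15.1-fold enrichment in replicate 1 and 16.9-fold in replicate 2. Its coding neighbours are Kcnt2, a sodium-activated potassium channel gene, at 1341 kb and Cdc73, a subunit of the Paf1 transcription complex, at 1649 kb. The next, chr5:46901390-46903065 between Lcorl and Slit2, a secreted axon guidance cue, was 486.8 kb from a gene and had 14.8-fold and 24.3-fold enrichment. The other 3 of the 5 farthest were weaker in both replicates, from 3.97 to 6.83 in replicate 1 and from 5.14 to 7.26 in replicate 2. At the 50 kb limit, the 3 regions just inside lay at most 50.1 kb from a gene end, with 2.87 to 5.06-fold enrichment in replicate 1 and 4.43 to 7.31 in replicate 2. The 3 just outside lay at 49.8 to 49.9 kb with 4.21 to 6.12 and 3.48 to 4.40. One of those outside, chr15:52385192-52386017, lay 49.8 kb from Slc30a8.

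Desert regions were unevenly spread over deserts. Of 3178 gaps between genes longer than 100 kb, 751 (23.6%) held at least 1 of them. There was 1 region in 427 gaps, 2 in 182 and 3 or more in 142, and these last held 535 of the 1326. Gaps with a region were longer, with a median of 249.8 kb against 173 kb over all. Neighbouring regions in the same gap lay a median of 30.9 kb apart (575 pairs), and 133 pairs lay within 10 kb.

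The fullest desert held 8 regions. It spans 707 kb of chromosome 15, chr15:67377095-68083713, between the lncRNA gene 1700012I11Rik and Zfat, a zinc finger factor gene, and St3gal1 is the coding gene on its other side. Its regions ran from 3.68 to 15.6-fold in replicate 1 (median 8.61) and from 3.86 to 18.1-fold in replicate 2 (median 8.54). Both coding neighbours carried H3K4me3. The second fullest, chr13:115164826-115528500, held 7 regions within 130.0 kb between Itga1 and Isl1. Deserts between Bmp2 and Hao1, Cntn3 and Chl1, and Kcnt2 and Cdc73 held 6 regions each. Bmp2 encodes a bone morphogenetic protein, and Cntn3 and Chl1 encode neural adhesion molecules.

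Chromosomes differed. The X chromosome held 33 desert regions in 37.5 Mb of desert, 0.879 per Mb, and also few near genes, 1.64 per Mb. Chromosomes 13 and 19 were densest at 5.77 and 5.76 per Mb, with 97 and 37 regions, and chromosome 11 was the sparsest of chromosomes 1 to 19 at 1.51 per Mb with 25. Median fold enrichment on X, 6.44 and 6.76 in replicates 1 and 2, was close to that of all desert regions.

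The nearest annotated gene was mostly not coding. It was a pseudogene for 34.8% of desert regions, an lncRNA gene for 31.6% and a coding gene for 20.6%. A gene counted as marked when an H3K4me3 region of both replicates lay within 1 kb of either end. Among the nearest genes of any type, at least 1 of the 2 sides was marked for 403 desert regions (30.4%), against 49.3% of unmarked intergenic regions within 50 kb. Taken singly, 30.8% of all genes were marked, a rate per gene that cannot be set against a share for at least 1 of 2 sides. Among the nearest coding genes at least 1 side was marked for 1230 regions (92.8%, Wilson interval 91.2% to 94.0%) and both sides for 596 (44.9%). This interval treats regions as independent and is too narrow, since the regions lay in 548 coding gaps and those in the same gap share both coding neighbours. Taken singly, 55.8% of all coding genes were marked, and 79.8% of deserts had at least 1 marked coding neighbour. Near genes, at least 1 coding side was marked for 90.6% of unmarked MafA regions. The nearer coding gene lay at a median of 216 kb and the farther at 596 kb.

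Deserts between marked coding genes held more MafA regions per Mb than deserts between unmarked ones. With no marked coding neighbour there were 96 regions in 82.3 Mb, 1.17 per Mb. With 1 there were 634 in 201 Mb, 3.15 per Mb, and with both 596 in 134 Mb, 4.45 per Mb. Peaks of each MafA replicate followed the same order, at 1.54, 4.17 and 5.98 per Mb in replicate 1 and 2.10, 5.22 and 7.27 in replicate 2. The density with both neighbours marked was 3.81 times that with none, and 2.94 times without chromosome X, which held 21.8 of the 82.3 Mb with no marked neighbour and 2 of the 96 regions there. The order held 50 to 100 kb from genes, at 1.58, 4.33 and 5.21 per Mb, and beyond 100 kb, at 0.788, 2.08 and 3.69. It did not hold on chromosome X alone, at 0.0918, 2.47 and 0.497 per Mb, from 2, 29 and 2 regions. At least 10-fold enrichment in both replicates was reached by 7 of 96 regions (7.29%) with no marked neighbour, 86 of 634 (13.6%) with 1 and 81 of 596 (13.6%) with both. For 0, 1 and 2 marked neighbours the median enrichment of the regions was 6.02, 6.00 and 6.49 in the first MafA library and 6.67, 6.60 and 6.97 in the second. This comparison was chosen after the densities had been seen and has no test.

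**Figure D3:**
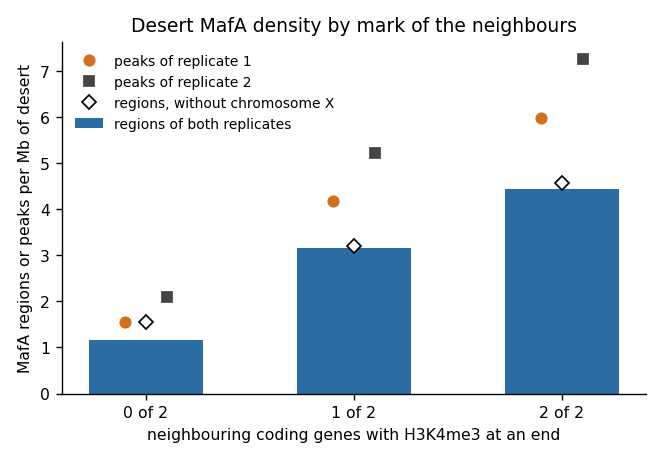
MafA regions of both replicates per Mb of desert (bars), the same without chromosome X (diamonds), and peaks of each MafA replicate per Mb (circles and squares), by how many of the 2 neighbouring coding genes had an H3K4me3 region within 1 kb of an end. The bars rise from 1.17 to 3.15 and 4.45 per Mb.

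The strongest desert region lay beside Tmem18, a transmembrane protein gene. This region, chr12:30709997-30712081, had 49.0-fold enrichment in replicate 1, from 303 fragments and a scaled background of 5.20. In replicate 2 it had 53.1-fold, from 626 unscaled fragments and a scaled background of 7.82. Ordered by mean rank, it was number 4 of all 25894 MafA regions. Tmem18 ended 119.8 kb to its left, and Alkal2, which encodes a ligand of the receptors ALK and LTK, lay 173 kb to its right. Both carried H3K4me3. Measured from the start of Tmem18 it stood at 127 kb, and a weak region beside it at 124 kb had 3.94 and 4.71-fold enrichment.

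The second strongest, chr4:27644923-27646760, had 42.5-fold and 51.2-fold enrichment and lay 1167 kb from Epha7, an ephrin receptor gene, and 1299 kb from Manea, a Golgi mannosidase gene. The third, chr10:36201890-36204271, had 39.4-fold and 46.0-fold enrichment at 304 kb from Hs3st5, a heparan sulfate sulfotransferase gene that carried the mark, while Amd2 on the other side did not. Beside Tent5a, a poly(A) polymerase gene, chr9:84921217-84923036 had 28.9-fold and 46.9-fold enrichment at 398 kb. Here the replicates differed by more than at the first 3, at 83 and 258 fragments.

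Irs1 had a single desert region and it was the fifth strongest. At chr1:81948389-81952459 it had 30.5-fold and 39.3-fold enrichment, 109 and 257 fragments, and was 4071 bp wide. It lay 283 kb past the end of Irs1 and 583 kb from Nyap2, a neuronal adaptor of phosphoinositide 3-kinase. Both genes carried H3K4me3.

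The rest of the 20 strongest had 18.7 to 33.2-fold enrichment in replicate 1 and 23.4 to 38.4 in replicate 2. All 20 had at least 1 marked coding neighbour and 9 had both, and 16 were higher in replicate 2, where the shares over all desert regions were 92.8%, 44.9% and 62.4%. Their neighbours included the tachykinin receptor gene Tacr3 (33.2 and 32.7) and the histone deacetylase gene Hdac4 (28.4 and 38.4). Hdac4 had no mark within 1 kb of the end of its gene model, but an H3K4me3 region overlapped its annotated start window. Among the neighbours that encode transcription factors were Klf4 (23.6 and 32.5 at 218 kb), Nr4a2 (27.2 and 26.9 at 1259.7 kb), Myc (22.6 and 28.9 at 913 kb) and Prox1 (22.2 and 23.7 at 164 kb). The unmarked genes Kcnj3, at 249 kb, and Gsdmc, at 873 kb, were nearer to the regions of Nr4a2 and Myc. The protocadherin genes Pcdh20 and Pcdh9 enclosed 2 of the 20, at 25.3 and 25.9 and at 18.7 and 36.8. Among the 10 strongest of all MafA regions 2 were in deserts, among the 100 strongest 7, and among the 1000 strongest 60 (6.00%), where deserts hold 5.12% of all regions.

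The weakest region, chr19:26977842-26978802 near Vldlr, had 2.22 and 2.34-fold enrichment. It was not thin in fragments, with 48 and 80, but its modelled background was 21.1 and 25 scaled fragments. Replicates were farthest apart at chr11:44251038-44251975, near the interleukin gene Il12b, with 10.7-fold in replicate 1 and 2.47-fold in replicate 2. At chr5:39850815-39852353, near Hs3st1, the order was the other way, 8.92 and 32.4.

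Cell identity was checked on the H3K4me3 lists, since no expression was measured. Of 12 beta cell markers 10 carried an H3K4me3 region within 1 kb of an end, the exceptions being Ins1 and G6pc2, as did 5 of 19 markers of other cell types, among them Gcg, Irx2 and Cd68. The part of other cells in the desert regions was not tested.

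Of the beta cell genes on a list of 77 symbols, 28 lay beside a desert. Of these, 15 (53.6%) were the first coding gene on either side of a desert region, though not always the nearer one. Over all coding genes beside a desert this was 37.8%, or 994 of 2633, and over all coding genes 4.54%. The only regions of Pcsk2, Rgs4, Ptprn2 and Dlk1 each lay nearer to the coding gene on their other side. So did some regions of genes with several, such as Isl1, Foxa2, Slc30a8, Ins1, Rfx3, Pcsk1 and Gata6. Together the 15 genes adjoined 55 of the 1326 regions (4.15%). Of the 15, 12 carried H3K4me3, as did 59 of the 76 coding genes found on the list and 55.8% of all coding genes. The median enrichment of these 55 regions was 4.67 and 6.59 in replicates 1 and 2, against 6.15 and 6.75 over all desert regions, and 6 of the 55 reached 10-fold in both. Of the 15 genes, Isl1, Ins1, Npy, Slc30a8, Foxa2, Irs2, Pcsk2, Rgs4 and Scg2 also had a MafA region within 1 kb of an end, as did 20.4% of all coding genes.

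Isl1, a LIM homeodomain factor of islet development, adjoined 16 desert regions, more than any other coding gene. They lay between 171 and 976 kb from its ends, 12 towards Itga1 and 4 on the other side, towards Parp8. Most of the 16 were nearer to Itga1 or Parp8 than to Isl1. Only chr13:116087836-116088370, at 210 kb, and chr13:116479924-116480621, at 171 kb, had Isl1 as the nearer coding gene. Enrichment ran from 3.12 to 11.1 in replicate 1 (median 4.33) and from 3.32 to 13.5 in replicate 2 (median 6.75). The strongest was chr13:115345224-115347835, 952 kb from Isl1 and 245 kb from Itga1, a collagen-binding integrin gene, which was the nearer coding gene. Of the regions towards Itga1, 7 form the second fullest desert described above, so the 16 are shared between neighbours rather than assigned to Isl1.

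**Figure D4:**
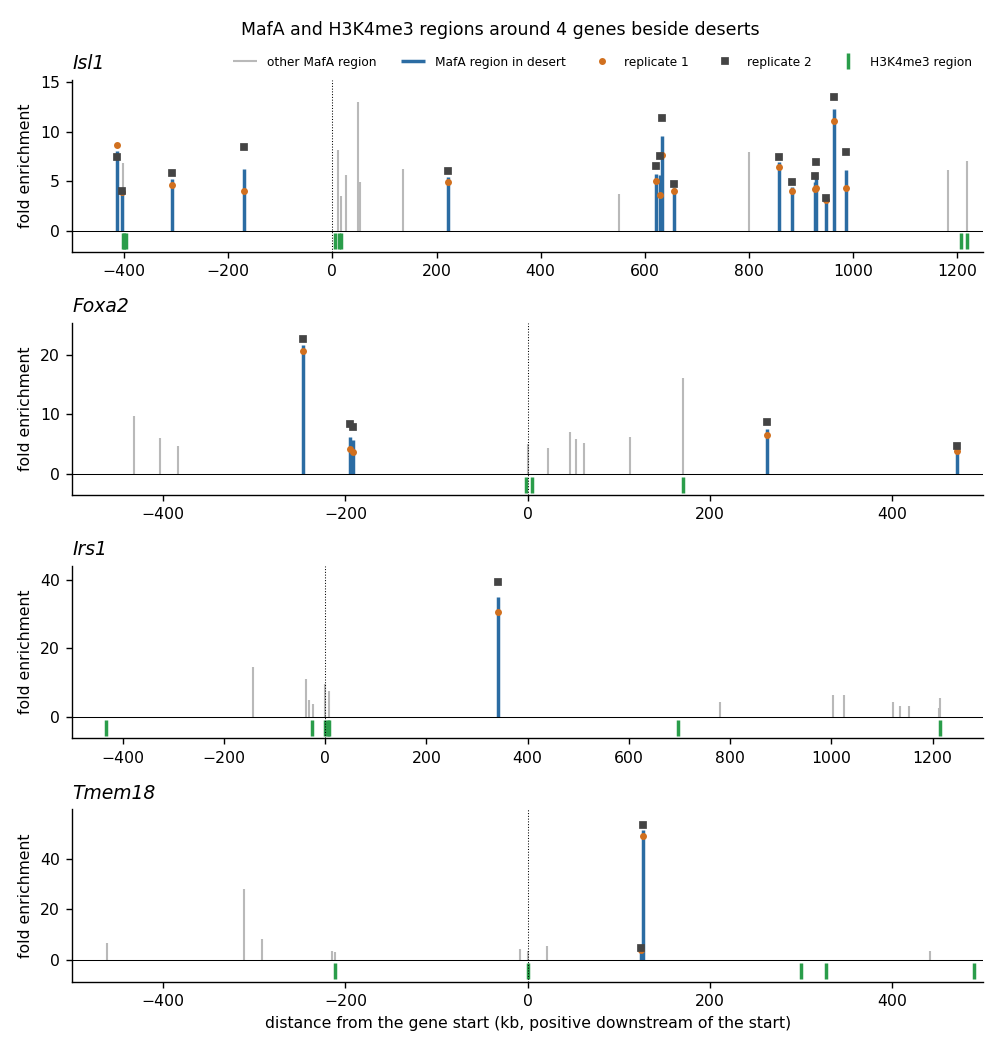
MafA regions in deserts (blue lines at the mean fold enrichment, with replicates as points), other MafA regions (grey lines at the mean) and H3K4me3 regions (green ticks) around Isl1, Foxa2, Irs1 and Tmem18, by distance from the gene start in kb, positive downstream of the start. The 12 Isl1 regions on the Itga1 side stand 222 to 987 kb downstream, whereas Irs1 has a single one at 341 kb.

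Foxa2 adjoined 5 desert regions, 192 to 468 kb from its ends. The strongest, chr2:148292664-148293687, had 20.6-fold and 22.6-fold enrichment and lay 246 kb upstream. It was nearer, at 102 kb, to the somatostatin receptor gene Sstr4, which carried no mark. The other upstream regions, 192 and 196 kb from Foxa2, were also nearer to Sstr4, at 156 and 153 kb. Of the other 4, the values were 3.65 to 6.49 in replicate 1 and 4.62 to 8.74 in replicate 2. The TGCTGAC shown above lies at the gene's start and not in these regions, whose own sequences were not used here.

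Genes of insulin and its secretion followed. Ins1, a rodent insulin gene, adjoined 6 regions at 202 to 469 kb, with 3.02 to 7.10-fold enrichment in replicate 1 and 4.01 to 10.5 in replicate 2. The strongest was chr19:52048095-52049289, at 216 kb. Slc30a8, the zinc transporter of insulin granules, adjoined 6, of which 5 lay on the side of Aard. The strongest, chr15:52166292-52168161, had 15.4-fold and 14.4-fold enrichment at 128 kb, but Aard was nearer, at 122 kb. Other regions beside Slc30a8 were also nearer to Aard, and chr15:52612737-52613546 was nearer to Med30. The prohormone convertase genes Pcsk1 and Pcsk2 adjoined 3 and 1. For Pcsk1 these were at 241 to 292 kb, with up to 7.41 and 13.0-fold enrichment, and for Pcsk2 at 342 kb with 9.98 and 15.2. The strongest of the Pcsk1 regions, at 292 kb, was nearer to Ell2, at 280 kb. Scg2 adjoined chr1:79317874-79319755 at 116 kb, with 18.0-fold and 20.3-fold enrichment.

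Other beta cell list genes had fewer or weaker regions, with some exceptions. Npy, a neuropeptide gene, adjoined 6, the strongest being chr6:49956410-49957692 with 14.7-fold and 21.3-fold enrichment at 128 kb. Rgs4, a regulator of G protein signalling, adjoined 1, chr1:169866251-169869115, with 13.4 and 19.5 at 120.0 kb. Rfx3, a factor of cilia and islet development, adjoined 4, with at most 5.80 and 8.62. Its gene ends carried no mark, but its annotated start window did. Nkx6-1, a beta cell homeodomain factor, adjoined 1 at 294 kb with 4.44 and 3.80, and Irs2 had 1 at 119 kb with 4.03 and 4.52. Ptprn2, a granule membrane protein gene, had 1 with 4.20 and 3.04, and Dlk1 1 with 5.78 and 4.15. Gata6 adjoined 2, with at most 7.27 and 9.46.

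Of 5 genes for other islet hormones and markers beside deserts, 2 adjoined a desert region, Irx1 and Irx2, factors of the Iroquois family. They share 2 regions, at 10.7 and 7.82 and at 7.45 and 14.2, which lay 65.6 and 137 kb from Irx1, and Irx2 adjoined another 2. None of the 4 reached 10-fold in both replicates.

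Developmental transcription factor genes adjoined 107 desert regions. Of 96 beside a desert, 42 (43.8%) were the first coding gene on either side of at least 1, against 37.8% of all coding genes beside a desert. Of the 42, 26 carried H3K4me3, as did 74 of the 138 coding genes found on the list and 55.8% of all coding genes. Myc led with 8, followed by Dach1 with 7, Nfia with 6, and genes with 5 each, among them Meis2, Nr4a2 and Shox2. Median enrichment of the 107 was 6.21 and 6.82 in replicates 1 and 2. Maf, which encodes another large Maf factor, adjoined 4 at 299 to 427 kb with up to 11.1 and 10.7-fold enrichment.

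Adhesion and axon guidance genes adjoined the most regions of any list, 227 of the 1326 (17.1%). Of 97 beside a desert, 62 (63.9%) adjoined at least 1, against 37.8% of all coding genes beside a desert. H3K4me3 was carried by 43 of the 62, as by 145 of the 226 coding genes found on the list and 55.8% of all coding genes. Pcdh7, a protocadherin gene, adjoined 15 with up to 14.4 and 18.6-fold enrichment. Flrt2, which encodes a repulsive guidance ligand, adjoined 12, the ephrin gene Efnb2 and the protocadherin gene Pcdh18 10 each, and Pcdh9 9. Pcdh9 carried no mark at its ends. Median enrichment of the 227, 6.11 and 6.59, was near that of all desert regions. These genes border very long deserts, such as 4542 kb between the coding genes Pcdh20 and Pcdh9, and the part of desert length in their counts was not tested.

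Ion channel and transmitter receptor genes adjoined 72 regions. Of 76 beside a desert, 32 (42.1%) adjoined at least 1, near the 37.8% of all coding genes beside a desert. Kcnt2 led with 9, and Kcnj3, a potassium channel gene that carried no mark, adjoined 5, among them the region at 27.2 and 26.9-fold that it shares with Nr4a2. The olfactory, vomeronasal and taste receptor genes, which serve as a family not known for a role in beta cells, had 17 members beside deserts. Of these, 3 (17.6%) adjoined 6 regions in all. None of the 3 carried the mark, and in the whole family only 3 of 1515 coding genes did. The lists were chosen with earlier results of these data known, and no list was tested.

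Outside the lists, Tent5a adjoined 13 desert regions, and Cited2, a transcriptional coregulator gene, and Nmbr, a neuromedin B receptor gene, 12 each. The latter are the 2 ends of the same 2952 kb coding gap, which held 12 regions with up to 22.5 and 23.4-fold enrichment. Coding gaps with 3 or more desert regions numbered 192 and held 843 of the 1326, out of 548 with any. Desert regions were a median of 289 kb from the nearest H3K4me3 region, against 53.3 kb for unmarked intergenic regions nearer to genes, and 34 (2.56%) lay within 50 kb of one. The rule keeps desert regions away from genes and off H3K4me3 peaks, and only 50 of 15573 H3K4me3 regions lay in deserts. These distances therefore follow in large part from the rule and are no finding.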

How the data were processed

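MafA and H3K4me3 CUT&RUN of MIN6 cells was analysed from 4 peak lists, 1 per library, with 33013 and 42747 MafA peaks and 16020 and 16904 H3K4me3 peaks in replicates 1 and 2. Peaks were called with MACS2 on GRCm38 (mm10), per the submitters' processing notes; the MACS2 version, aligner, duplicate handling and control library are not given in the sources used here. Per library, the authors deposited a fold enrichment (a ratio to the modelled background) with its p-value and q-value there as −log10, the lowest −log10 q being 2.00. The labels give no read totals for the libraries, so depth was read from the peaks: fold enrichment and p-value were solved for a whole number of fragments (tolerance 0.03 fragments), which worked for 100.0% and 99.2% of MafA peaks and gave a median of 25 and 46 fragments. Gene positions came from RefSeq, GRCm38.p6 (49943 genes, 21887 coding), and IDs were matched by symbol.

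Regions were joined, placed and counted in Python 3.11.15 with numpy 2.4.6, pandas 2.3.3 and scipy 1.17.1, and figures drawn with matplotlib 3.10.9. The routines were tested on simulated peaks. The strongest peak of each replicate gave a region its values. Deserts are gaps over 100 kb less 50 kb at each end. Libraries, not regions, were the replicates, and exact permutation tests over 2 libraries cannot reach 0.05. Named regions were the 20 strongest and 5 weakest by mean rank, the 5 farthest, the 5 fullest deserts, 3 on each side of the limit, the 5 with replicates farthest apart, and those beside islet list genes. Replicate numbers pair the desert and near-gene values because both come from the same library. Alternatives changed the peak threshold, list length, overlap, desert distance, gene types, H3K4me3 rule, chromosomes and libraries. The members and lists were chosen with earlier results of these data known. Some genes of the lists are not reported here by name.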

Additional observations from a re-analysis of the deposited data

How the results depend on the processing

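Most values that moved did so by the construction of the alternative: other deserts, other genes or fewer peaks. The number of desert regions, 1326, was 714 with equal numbers of the strongest peaks, 2569 with deserts over 25 kb from a gene, 500 over 100 kb and 4411 with coding genes only. It was 1329 to 2199 with 1 library left out, and 2199 without MafA replicate 1, when every peak of the other replicate counted. The density in deserts over that near genes, 0.485, was 0.477 when peaks needed a −log10 q of 5, 0.518 with equal numbers of peaks, 0.585 at 25 kb, 0.373 at 100 kb, 0.637 with coding genes only, 0.473 with H3K4me3 regions of both replicates, and 0.475 to 0.486 with 1 library left out. The share with a marked gene on at least 1 side, 30.4%, was 33.7% at 25 kb, 26.4% at 100 kb, 93.2% with coding genes only, 92.8% for the nearest coding gene and 92.7% for the latter on chromosomes 1 to 19. The density with both coding neighbours marked over that with none, 3.81, was chosen after seeing the data. It was 4.12 with equal numbers of peaks and with the mark within 5 kb, 4.68 at 100 kb, 2.94 on chromosomes 1 to 19, 4.25 when a mark at an annotated start window also counted, and 3.46 to 3.88 with 1 library left out. The log2 difference in enrichment from regions near genes, 0.08, was -0.10 in whole fragments, where the cause was not tested, 0.0079 with equal numbers of the strongest peaks and 0.03 without MafA replicate 2. The difference in width was 8 to 47 bp with 1 library left out. The difference in the share of peaks in deserts, 4.96 percentage points, was 9.30 at 25 kb, 1.95 at 100 kb and 15.3 with coding genes only.

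Without the replicate block, the differences in enrichment (0.08) and width (48.0 bp) had an exact permutation p of 0.667, and with the replicate block the difference of 4.96 percentage points in the share of peaks in deserts had an exact p of 0.5. No setting can pass 0.05 with 2 libraries, so these p-values say nothing about stability. The motif count at summits and its alternatives were not run.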
